A study of Homo sapiens with 6 samples.

Results

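Collagen and laminin chains are the subunits of the main structural proteins of the extracellular matrix. All genes whose symbols name such a chain (COL, a type number, A and a chain number, or LAMA, LAMB or LAMC and a number) were taken from the expression tables, which gave 53 of 17114 gene symbols, 41 collagen chains and 12 laminin chains. Of these, 19 had a mean of at least 1 FPKM (fragments per kilobase of exon, a level corrected for gene length and library size) and were tested, and 34 were low. COL13A1, at 1.32 FPKM, was the lowest chain above this limit and COL1A1, at 0.537 FPKM, the highest chain below it. RNA came from 786-O, an established human line of clear cell renal carcinoma. The cells received either Vehicle (3 libraries) or XMU_MP_1 (3 libraries), and no other difference in genotype or treatment is labelled. XMU-MP-1 is a small molecule that blocks MST1 and MST2, the kinases at the head of the Hippo pathway, and the title of the study names YAP, the coactivator that this pathway restrains. The labels call the exposure a transfection, state no dose or time, and do not say whether replicates are separate cultures: if they are not, the spread behind the p-values is technical.

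Collagen chains wind around each other into trimers, which then build fibrils, sheets, beaded filaments or anchoring fibrils according to type. Laminins are cross-shaped trimers of an alpha, a beta and a gamma chain, and together with collagen IV they form the basement membrane on which epithelial cells such as those of the renal tubule rest. A trimer needs its partner chains, so a change in a single chain can alter which trimers a cell is able to assemble.

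The number of reads behind each library is unknown. With Vehicle, FPKM summed to 484517, 454889 and 487218 in replicates 1 to 3. With XMU_MP_1 the sums were 502040, 495351 and 527709, each above each Vehicle sum. Vehicle replicate 2 stood apart from the other Vehicle libraries and XMU_MP_1 replicate 3 from the other XMU_MP_1 libraries. Over 3950 genes with at least 20 FPKM, the SD of log2 differences was 0.0904 between Vehicle replicates 1 and 3 and 0.0699 between XMU_MP_1 replicates 1 and 2, against 0.142 to 0.154 for the other pairs within a group. Vehicle replicate 2 was the highest of its group for 17 of the 19 tested chains and for 44.9% of all tested genes. XMU_MP_1 replicate 3 was the lowest of its group for 9 of the 19 and for 46.7% of all tested genes. Of a list of 9 renal tubule and renal carcinoma markers, PAX8 measured 113 to 133 FPKM over the libraries, KRT8 357 to 519, KRT18 169 to 299 and VIM 3106 to 3662. PAX2 lay between 3.67 and 4.61 FPKM, and CA9 stayed between 0.03 and 0.26 FPKM. LHX1, CDH6 and HAVCR1 lay between 6.30 and 49.8 FPKM and fell 2.50-fold, 1.87-fold and 3.36-fold after XMU_MP_1. Of the 8 tested markers on the list 5 were lower and 1 higher after XMU_MP_1, beside 25.9% and 32.0% of all tested genes. None of the 6 fibroblast markers in the tables reached a mean of 1 FPKM. Their summed level was 1.41 to 1.57 FPKM with Vehicle and 0.84 to 0.92 with XMU_MP_1, and PDGFRA, FAP and POSTN were under 0.1 FPKM in each library. The 7 endothelial markers summed to 0.61 to 0.82 and 0.26 to 0.34 FPKM, with VWF, CDH5 and EMCN under 0.1 in each library. Of 4 leukocyte markers in the tables, CD68 alone exceeded 1 FPKM (31.1 to 33.0), while PTPRC lay between 0.18 and 0.45. The summed fibroblast and endothelial markers were thus lower with XMU_MP_1, as many collagen and laminin chains were, and their part in those changes was not tested.

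Most expressed collagen and laminin chains were lower after XMU_MP_1, and the laminin beta chains set the extremes. LAMB3 fell 4.07-fold, the fibrillar collagen chain COL27A1 fell 2.73-fold and LAMB1 fell 1.96-fold, whereas LAMB2 was the single tested chain with a higher mean. Each gene was tested with limma on log2(FPKM + 1), a scale on which changes of low genes are understated, with Benjamini-Hochberg adjustment over all 11151 tested genes and a threshold of 0.05. Of the 19 tested chains 13 fell, 1 rose and 5 did not pass. Of the 13, COL16A1 reached the limit of 1 FPKM only through the Vehicle libraries, where it was high, so its entry into the count is not independent of its fall. Among all tested genes 25.9% were called lower and 32.0% higher, 57.9% in either direction. The median log2 change of the 19 chains was -0.31, that of all tested genes was 0.04, and 18 of the 19 chains had a log2 change below 0. For 15 chains each XMU_MP_1 library lay below each Vehicle library, as it did for 28.7% of all tested genes, and LAMB2 was the chain with the opposite separation, which 35.0% of all tested genes showed. Scaling moved these counts. With all libraries rescaled to the same summed FPKM, 17 chains fell and 0 rose in the same limma fit (0 also at an unadjusted p under 0.05), and the split over all genes changed from 3567 higher and 2886 lower to 2252 higher and 3448 lower. Against a minimum fold of 1.5, only LAMB3, LAMB1 and COL27A1 passed, 3 of 19 beside 4.08% of all tested genes, and 0 chains passed as higher (0 also at an unadjusted p under 0.05) beside 1.42%. Without the 2 libraries that stood apart 13 chains were lower and 1 higher, but COL6A2 gained the call and COL4A2 lost it. Over all genes 3172 were then lower and 4013 higher. In bulk RNA, fewer expressing cells and less RNA per cell cannot be told apart.

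**Figure D1:**
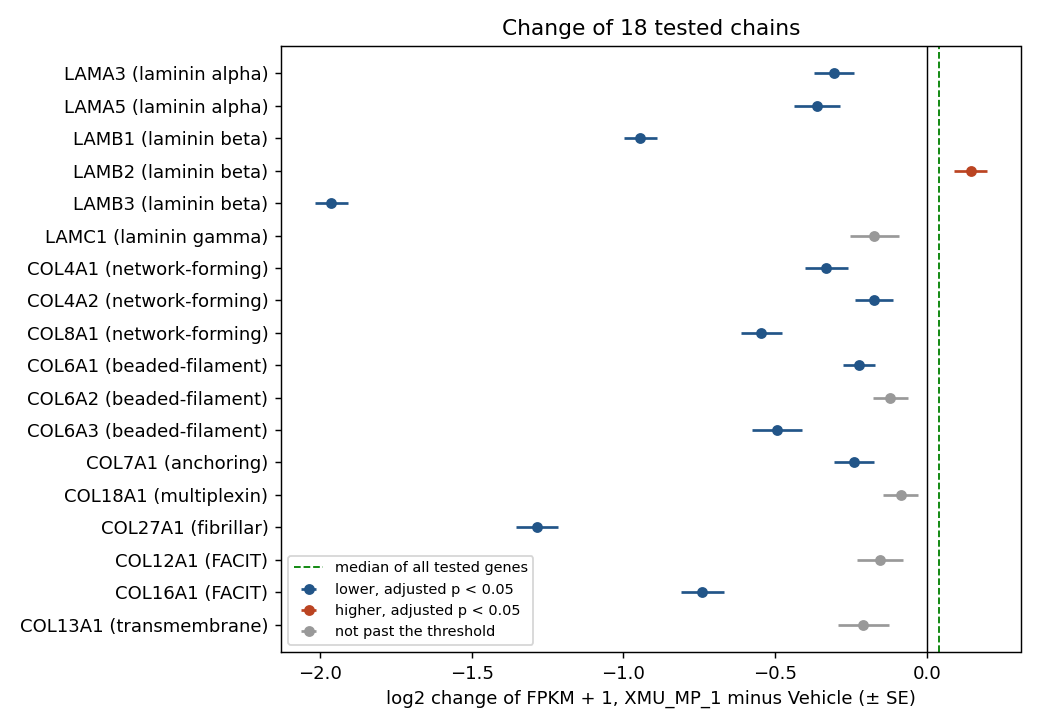
Log2 change of FPKM + 1 (horizontal axis, XMU_MP_1 minus Vehicle) of 18 tested chains, ordered by role, with bars for the SE of the limma fit; colours give the call and the dashed line is the median of all tested genes (0.04). LAMB3 (-1.96), COL27A1 (-1.28), LAMB1 (-0.94) and COL16A1 (-0.74) lie farthest to the left, and LAMB2 (0.14) is the single point above 0.

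The beta chains of laminin moved in opposite directions. LAMB3 (chromosome 1, 209614870 to 209652466, GRCh38, protein-coding) encodes the beta chain of the laminin that epithelial cells use in hemidesmosomes, which join them to the basement membrane. It measured 68.0, 70.9 and 65.2 FPKM in Vehicle replicates 1 to 3 and 16.4, 16.2 and 17.6 in XMU_MP_1 replicates 1 to 3. The groups were far apart relative to their spread (68.0 ± 2.85 against 16.7 ± 0.727, SD, n = 3 each), and the difference on the log2 scale was -1.96 ± 0.055 (SE; adjusted p = 1.29e-09, limma). LAMB1 (chromosome 7, 107923799 to 108003255), the widespread beta chain of most basement membranes, measured 47.9, 51.6 and 47.6 FPKM with Vehicle and 24.2, 26.3 and 24.6 with XMU_MP_1. The groups did not overlap. On the log2 scale it changed by -0.94 ± 0.055 (adjusted p = 2.24e-07), and both this fall and that of LAMB3 passed in all 18 alternatives, with ranges of -1.05 to -0.90 and -2.09 to -1.93. LAMB2 (chromosome 3, 49121114 to 49133118) encodes the beta chain typical of the glomerular basement membrane and the neuromuscular junction. It measured 14.8, 15.2 and 14.4 FPKM with Vehicle and 16.2, 17.0 and 16.3 with XMU_MP_1, with no overlap. Its rise was small (1.11-fold, log2 change 0.14 ± 0.054, adjusted p = 0.0387), and the call was lost on rescaling to equal sums (0.06, adjusted p = 0.575), on median centring (0.11, adjusted p = 0.0687), and without Vehicle replicate 1 (adjusted p = 0.101), Vehicle replicate 3 (0.122), XMU_MP_1 replicate 1 (0.0695) or XMU_MP_1 replicate 2 (0.140). LAMB4, a beta chain of unsettled role, lay between 0.04 and 0.16 FPKM.

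The DNA just upstream of the starts of these beta chain genes is shown because they are alike in role and yet differed in change. The small rise of LAMB2 lost its call in 8 of 18 alternatives. The windows hold the 250 bases before a RefSeq start (GRCh38.p14), read 5′ to 3′ on the strand of the gene. Capitals mark matches, on either strand, to GGAATG (the core bound by TEAD factors), GGGNN followed directly by TTTCC (NF-κB), TGANTCA (AP-1), GGGCGG (SP1) or CCAAT. LAMB3 has 3 starts in the table, of which the outermost and the innermost are shown (chr1:209652426-209652675 and chr1:209651375-209651624, minus strand), followed by LAMB1 (chr7:108003162-108003411, minus strand) and LAMB2 (chr3:49133051-49133300, minus strand).
LAMB3 outermost start: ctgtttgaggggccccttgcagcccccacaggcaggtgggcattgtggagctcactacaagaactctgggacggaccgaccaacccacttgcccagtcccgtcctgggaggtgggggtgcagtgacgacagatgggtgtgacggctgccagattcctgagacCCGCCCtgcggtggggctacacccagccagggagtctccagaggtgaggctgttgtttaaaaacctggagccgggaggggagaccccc
LAMB3 innermost start: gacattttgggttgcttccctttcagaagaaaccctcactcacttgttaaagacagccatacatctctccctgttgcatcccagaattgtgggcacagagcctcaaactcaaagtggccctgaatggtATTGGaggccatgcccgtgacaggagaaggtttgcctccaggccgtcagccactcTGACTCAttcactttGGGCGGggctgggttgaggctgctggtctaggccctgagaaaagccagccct
LAMB1: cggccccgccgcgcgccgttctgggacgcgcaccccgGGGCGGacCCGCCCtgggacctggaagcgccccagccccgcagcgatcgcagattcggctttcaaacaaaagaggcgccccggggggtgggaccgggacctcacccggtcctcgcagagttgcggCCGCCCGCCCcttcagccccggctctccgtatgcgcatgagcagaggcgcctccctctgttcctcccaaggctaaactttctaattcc
LAMB2: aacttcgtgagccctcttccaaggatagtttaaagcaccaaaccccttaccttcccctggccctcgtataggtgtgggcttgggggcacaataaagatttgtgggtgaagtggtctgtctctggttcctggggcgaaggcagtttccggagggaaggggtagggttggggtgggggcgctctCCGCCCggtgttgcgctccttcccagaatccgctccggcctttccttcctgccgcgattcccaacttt
The outermost LAMB3 window held 1 GGGCGG match, 88 to 83 bases before the start. The innermost held TGACTCA, an AP-1 match 67 to 61 bases before the start, a CCAAT match and a GGGCGG match. The LAMB1 window held 4 GGGCGG matches and the LAMB2 window 1. Over all 16 tested chains with a window in the table, GGAATG was found in 1 (COL12A1), the NF-κB motif in 1 (COL7A1), TGANTCA in 2 (LAMA3 and LAMB3), CCAAT in 3 (COL4A1, COL4A2 and LAMB3) and GGGCGG in 14. Of the 35116 windows of all starts in the table, 11.9% held GGAATG, 1.73% the NF-κB motif, 6.57% TGANTCA, 32.0% CCAAT and 42.6% GGGCGG. A gene with several starts has several windows, so the gene counts and these shares are not on the same footing. The FPKM do not tell which start was used, and a match describes letters only.

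Among the alpha chains, which carry most of the receptor binding sites of laminins, LAMA3 and LAMA5 were expressed and both fell modestly. LAMA3 (chromosome 18, 23689443 to 23956222), the partner of LAMB3 in epithelial laminin, measured 14.8, 15.03 and 13.7 FPKM with Vehicle and 10.6, 12.1 and 12.0 with XMU_MP_1, without overlap. The log2 change was -0.31 ± 0.067 (limma adjusted p = 0.00250). LAMA5 (chromosome 20, 62307955 to 62367312), the main alpha chain of mature epithelial basement membranes, measured 3.58, 4.09 and 3.46 FPKM with Vehicle and 2.72, 2.75 and 2.51 with XMU_MP_1, again without overlap (log2 change -0.36 ± 0.075, adjusted p = 0.00181). LAMA1, LAMA2 and LAMA4 were low, with no library above 0.28 FPKM. LAMC1, the gamma chain of most laminins (chromosome 1, 183023460 to 183145592), measured 47.5, 57.1 and 48.4 FPKM with Vehicle and 46.8, 47.7 and 40.7 with XMU_MP_1. The groups overlapped and the change did not pass (-0.17 ± 0.081, adjusted p = 0.0881). It was -0.09 without Vehicle replicate 2, -0.10 without XMU_MP_1 replicate 3 and -0.02 without both, whereas it passed on rescaling to equal sums (-0.27, adjusted p = 0.0333), on median centring (-0.20, adjusted p = 0.0431) and with the length trend removed (-0.18, adjusted p = 0.0307). LAMC3 did not exceed 0.03 FPKM.

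**Figure D2:**
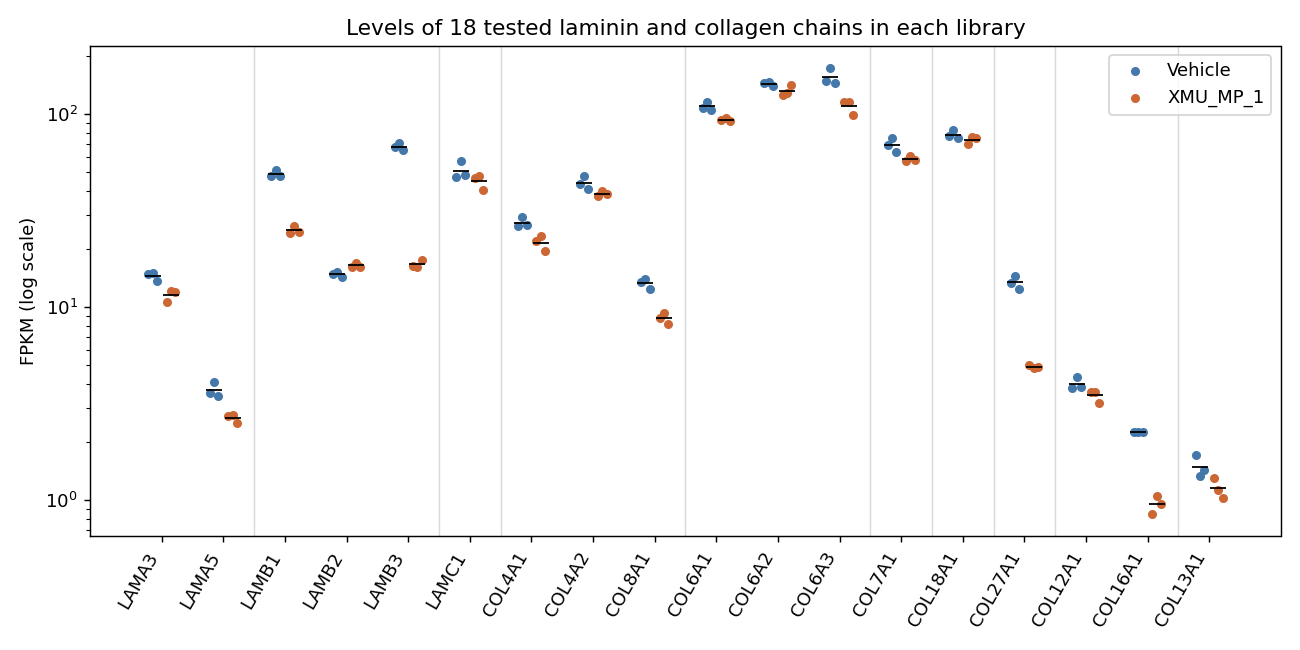
FPKM (vertical axis, log scale) of 18 tested chains in each of the 6 libraries, grouped by role with grey lines between roles; each point is a library and each black bar a group mean. LAMB3 drops from 65.2 or more to 17.6 or less and COL27A1 from 12.5 or more to 5.05 or less, while the COL18A1, COL6A2 and LAMC1 groups overlap.

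Because FPKM is per length, levels of partner chains can be set beside each other within a library, and 8 ratios of FPKM between chains of a trimer, or between beta chains that replace each other, were computed. The 3 others that had been planned involved a low chain. Of these 8 ratios 6 are reported here. LAMB1 was about as abundant as LAMC1 with Vehicle and well below it with XMU_MP_1. The ratio of LAMB1 to LAMC1 was 1.01, 0.904 and 0.983 with Vehicle and 0.518, 0.551 and 0.604 with XMU_MP_1, a log2 fall by 0.79 ± 0.080 (SE). That of LAMB2 to LAMB1 went from 0.310, 0.294 and 0.303 to 0.668, 0.646 and 0.661, a log2 rise of 1.13 ± 0.027, so that LAMB2 was still the less abundant of the pair in each library. LAMA5 was far below LAMC1 in both groups, at a ratio of 0.0728 ± 0.00223 with Vehicle and 0.0591 ± 0.00220 with XMU_MP_1 (SD, n = 3 each). For 5 of the 6 reported ratios the groups did not overlap, which gives an exact permutation p of 0.1 each, the smallest that 3 against 3 libraries allow, and 0.133 after Benjamini-Hochberg adjustment over the 8 computed.

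**Figure D3:**
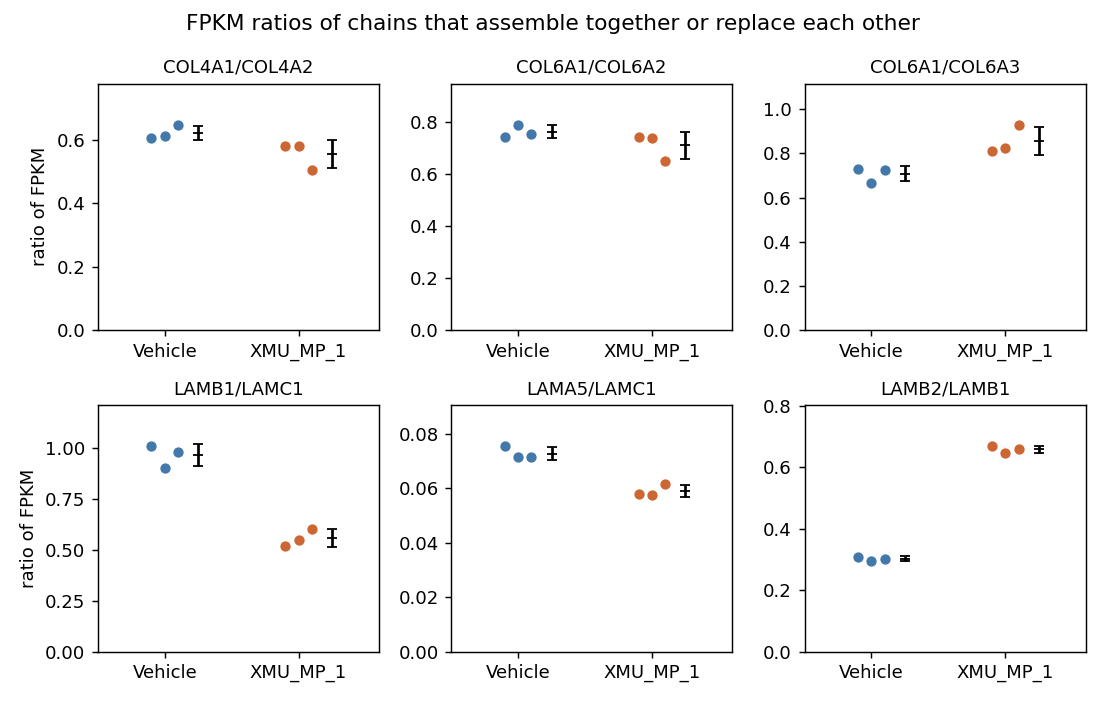
Ratios of FPKM between chains (vertical axes, from 0) in each library, with the mean and SD of each group beside the points. LAMB1/LAMC1 falls from between 0.904 and 1.01 to between 0.518 and 0.604 and LAMB2/LAMB1 rises from at most 0.310 to at least 0.646, whereas the groups overlap for COL6A1/COL6A2.

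Collagen IV, the sheet-forming collagen of basement membranes, was represented by COL4A1 and COL4A2, whose products assemble into a trimer. COL4A1 (chromosome 13, 110148963 to 110307233) measured 26.4, 29.2 and 26.5 FPKM with Vehicle and 21.9, 23.3 and 19.5 with XMU_MP_1, without overlap. It fell with a log2 change of -0.33 ± 0.071 (limma adjusted p = 0.00226), which was -0.22 without both libraries that stood apart. COL4A2 (chromosome 13, 110305812 to 110513209) measured 43.5, 47.7 and 40.9 FPKM with Vehicle and 37.8, 40.1 and 38.6 with XMU_MP_1. The lowest Vehicle value lay only just above the highest XMU_MP_1 value. Its log2 change of -0.17 ± 0.062 passed narrowly (adjusted p = 0.0325), and the call was lost in 10 of 18 alternatives, among them those without Vehicle replicate 1 (adjusted p = 0.0698), Vehicle replicate 2 (0.0986), XMU_MP_1 replicate 1 (0.105) or XMU_MP_1 replicate 3 (0.0560). Without both libraries that stood apart it was -0.11 (adjusted p = 0.0608). The ratio of COL4A1 to COL4A2 was 0.607, 0.613 and 0.649 with Vehicle and 0.581, 0.581 and 0.505 with XMU_MP_1, without overlap, a log2 fall by 0.17 ± 0.074 that was 0.10 without XMU_MP_1 replicate 3. COL4A3, COL4A4, COL4A5 and COL4A6, which encode the chains of specialised basement membranes such as that of the glomerulus, stayed at or below 0.29 FPKM.

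COL4A1 and COL4A2 lie head to head and are transcribed away from a shared promoter. The 126 bases between their RefSeq starts (chr13:110307158-110307283, GRCh38.p14, plus strand) are shown for this reason, with COL4A1 starting to the left and COL4A2 to the right. Capitals mark a CCAAT match and a GGGCGG match, and none of the other motifs searched was found in these letters.
COL4A1-COL4A2: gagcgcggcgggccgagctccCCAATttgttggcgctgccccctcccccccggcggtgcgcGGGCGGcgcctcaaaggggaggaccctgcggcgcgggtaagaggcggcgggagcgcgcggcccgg
The remaining network-forming chain above the limit was COL8A1 (chromosome 3, 99638475 to 99799226), a short-chain collagen known from the matrix beneath endothelial cells and in vessel walls. It measured 13.5, 14.0 and 12.4 FPKM with Vehicle and 8.83, 9.30 and 8.23 with XMU_MP_1. The groups did not overlap, and the 1.51-fold fall had a log2 change of -0.55 ± 0.068 (limma adjusted p = 5.65e-05). COL8A2 and COL10A1, the other short-chain collagens, lay at or below 0.09 FPKM.

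Transcripts for collagen VI, whose beaded filaments surround cells and tie them to basement membranes, were the most abundant of the collagens. COL6A1, COL6A2 and COL6A3 together held 60.4% to 61.8% of the summed FPKM of all collagen chains in each library. COL6A3 (chromosome 2, 237324003 to 237414375), the longest of its chains and the source of the fragment endotrophin, measured 148, 173 and 146 FPKM with Vehicle and 116, 116 and 99.2 with XMU_MP_1. Vehicle replicate 2 was the highest and XMU_MP_1 replicate 3 the lowest, and the groups did not overlap (log2 change -0.49 ± 0.082, limma adjusted p = 4.07e-04). Without these 2 libraries the change was -0.34 (adjusted p = 1.56e-05). COL6A1 (chromosome 21, 45981737 to 46005050) fell less, from 108, 116 and 106 FPKM to 94.0, 95.6 and 92.3 (log2 change -0.22 ± 0.053, adjusted p = 0.00419). COL6A2 (chromosome 21, 46098097 to 46132849), its neighbour on the chromosome, measured 146, 147 and 140 FPKM with Vehicle and 126, 129 and 142 with XMU_MP_1. Its groups overlapped through XMU_MP_1 replicate 3, and the change did not pass (-0.12 ± 0.058, adjusted p = 0.0982). It passed without that library (-0.17, adjusted p = 0.0157), on rescaling to equal sums (-0.22, adjusted p = 0.00609) and with the length trend removed (-0.16, adjusted p = 0.0281). Without both libraries that stood apart the COL6A2 change also passed (-0.16, adjusted p = 0.00347). COL6A3 was the most abundant chain of all with Vehicle, although its range overlapped that of COL6A2, whereas with XMU_MP_1 each COL6A2 value exceeded each COL6A3 value. The ratio of COL6A1 to COL6A3 rose from 0.730, 0.668 and 0.725 to 0.813, 0.824 and 0.930, without overlap (log2 change 0.27 ± 0.074). The ratio of COL6A1 to COL6A2 was 0.762 ± 0.0243 with Vehicle and 0.711 ± 0.0523 with XMU_MP_1, with overlapping groups (exact two-sided permutation p = 0.2). COL6A5 and COL6A6 did not exceed 0.04 FPKM.

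COL7A1 (chromosome 3, 48564073 to 48595267), the chain of the anchoring fibrils that fasten epithelial basement membranes to the tissue beneath, measured 69.0, 75.7 and 63.9 FPKM with Vehicle and 57.0, 60.8 and 58.1 with XMU_MP_1. The groups did not overlap and the chain fell 1.19-fold (log2 change -0.24 ± 0.065, limma adjusted p = 0.00859). COL18A1 (chromosome 21, 45405137 to 45513720), a basement membrane collagen whose end piece is endostatin, measured 77.5, 83.1 and 75.1 FPKM with Vehicle and 70.3, 76.1 and 75.5 with XMU_MP_1. The groups overlapped and the change did not pass (-0.09 ± 0.057, adjusted p = 0.223), though it did on rescaling to equal sums (-0.18, adjusted p = 0.0395). Without Vehicle replicate 2 it was -0.045 and without XMU_MP_1 replicate 1 it was -0.05. Exons of SLC19A1 on the opposite strand cover 16.4% of the exonic length of COL18A1 in GENCODE release 29. Whether counting used strand is not given in the sources used here, so reads of the overlapping genes may not have been told apart. For the other tested chains, no single overlapping gene shared more than 2.71% of the exonic length.

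Fibril-forming collagens were nearly silent except for COL27A1. COL27A1 (chromosome 9, 114155560 to 114312511), a fibrillar chain known from developing cartilage, measured 13.3, 14.6 and 12.5 FPKM with Vehicle and 5.05, 4.83 and 4.92 with XMU_MP_1. This 2.73-fold fall was the largest among the 12 tested collagens (log2 change -1.28 ± 0.069, limma adjusted p = 1.19e-07) and passed in all 18 alternatives, with a range of -1.45 to -1.23. The 250 bases before its RefSeq start (chr9:114155287-114155536, GRCh38.p14, plus strand) are shown because of the size of this change, with 2 GGGCGG matches in capitals and no match to the other motifs searched.
COL27A1: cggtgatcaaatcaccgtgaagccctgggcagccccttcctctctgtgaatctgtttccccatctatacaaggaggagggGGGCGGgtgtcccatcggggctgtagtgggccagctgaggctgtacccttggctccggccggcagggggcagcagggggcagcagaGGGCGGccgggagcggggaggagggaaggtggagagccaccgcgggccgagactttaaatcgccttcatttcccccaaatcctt
The chains of the classical fibrils were low. COL1A1 measured 0.54, 0.75 and 0.49 FPKM with Vehicle and 0.35, 0.76 and 0.33 with XMU_MP_1, with overlapping groups. Its partner COL1A2 was listed at 0.01, 0.00 and 0.00 and at 0.02, 0.10 and 0.00, and COL3A1 at 0 in 5 of 6 libraries and at 0.08 in XMU_MP_1 replicate 2. COL5A1 measured 0.46, 0.49 and 0.43 FPKM against 0.23, 0.24 and 0.28, all lower with XMU_MP_1, and COL5A2 0.10, 0.11 and 0.11 against 0.14, 0.22 and 0.15, all higher.

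Among the FACIT collagens, which decorate the surface of fibrils, COL16A1 and COL12A1 were above the limit. COL16A1 (chromosome 1, 31652247 to 31704319) measured 2.27, 2.26 and 2.25 FPKM with Vehicle and 0.85, 1.05 and 0.96 with XMU_MP_1. The groups were well separated. The mean of 0.953 FPKM with XMU_MP_1 lay under the limit of 1 FPKM, which the chain met only through its Vehicle mean of 2.26. Its entry into the test is thus not independent of its fall. With no filter on low values the chain was still called lower (-0.74, limma adjusted p = 7.62e-05). Its log2 change of -0.74 ± 0.070 (limma adjusted p = 8.03e-06) became -1.17 with a pseudocount of 0.1 in place of 1. COL12A1 (chromosome 6, 75084326 to 75206051) measured 3.80, 4.34 and 3.87 FPKM with Vehicle and 3.65, 3.65 and 3.19 with XMU_MP_1. The groups did not overlap, but the change did not pass (-0.15 ± 0.076, adjusted p = 0.104) except on median centring (-0.18, adjusted p = 0.0336), and it was -0.06 without both libraries that stood apart. COL13A1 (chromosome 10, 69801867 to 69964275), a transmembrane collagen of cell adhesion sites, measured 1.71, 1.33 and 1.43 FPKM with Vehicle and 1.30, 1.13 and 1.03 with XMU_MP_1. Its change lay at the threshold (-0.21 ± 0.083, adjusted p = 0.0519), and it passed without Vehicle replicate 2 (adjusted p = 0.0362) or XMU_MP_1 replicate 1 (adjusted p = 0.0406), on rescaling to equal sums (0.0262), on median centring (0.0311) and with the length trend removed (0.0229). It did not pass in 10 of 17 alternatives. Among these were those without Vehicle replicate 1 (-0.15, limma adjusted p = 0.206) or XMU_MP_1 replicate 3 (-0.17, adjusted p = 0.144).

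**Figure D4:**
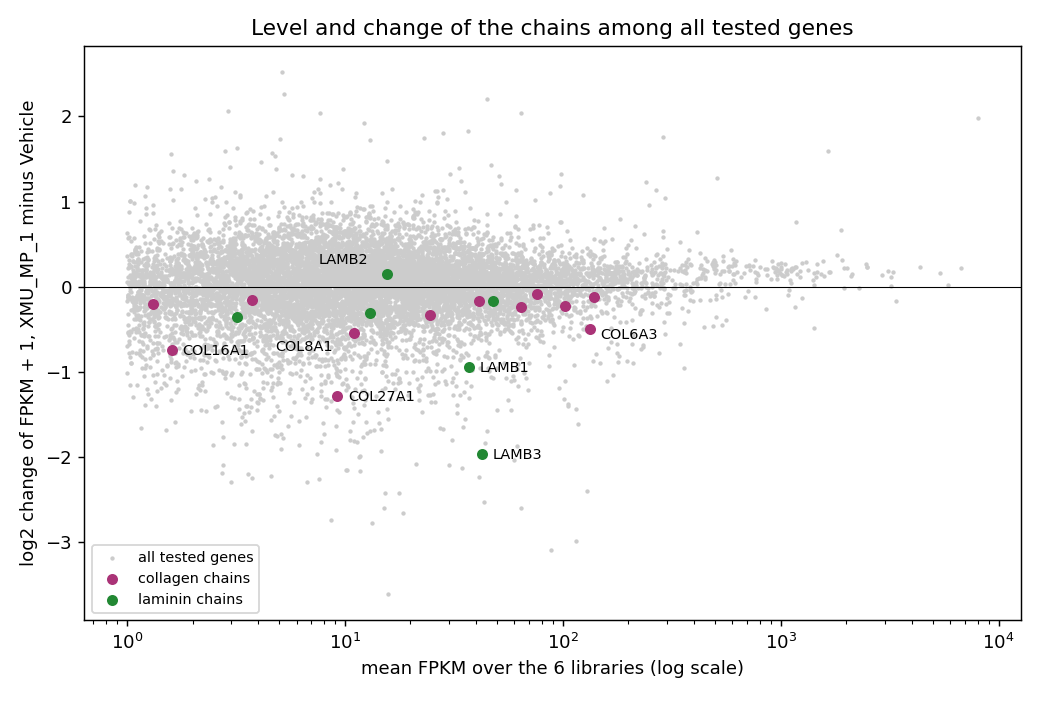
Mean FPKM over the 6 libraries (horizontal axis, log scale) and log2 change of FPKM + 1 (vertical axis, XMU_MP_1 minus Vehicle) of all 11151 tested genes (grey), with 18 collagen and laminin chains coloured. These span 1.32 to 138 FPKM, and 17 of the 18 lie below 0, most of them between -0.55 and -0.09.

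The 34 low chains included 29 collagens and 5 laminins. Their means over the 6 libraries were at most 0.537 FPKM, 24 were under 0.1 FPKM, and 17 were listed at 0 in at least 1 library. In 26 of the 34 the groups overlapped. COL17A1, COL5A1, LAMA2, LAMA1 and COL15A1 lay lower in each XMU_MP_1 library, and COL11A2, COL5A2 and COL6A6 lay higher, 5 and 3 of 34. Of the 5926 genes under the limit with a value above 0, 13.3% and 7.15% showed these separations, so the counts are near the background. COL17A1, a transmembrane collagen of hemidesmosomes, measured 0.51, 0.64 and 0.49 FPKM with Vehicle and 0.31, 0.35 and 0.29 with XMU_MP_1. COL11A2, a fibrillar chain of cartilage, measured 0.20, 0.18 and 0.24 FPKM against 0.42, 0.36 and 0.40. In a fit with no filter on low values, 5 of the 34 passed as lower and COL11A2 as higher, against 10.4% and 4.94% of all such low genes, with log2 changes of -0.23 (COL17A1), -0.22 (COL5A1), -0.10 (LAMA1), -0.09 (COL15A1), -0.07 (LAMA2) and 0.21 (COL11A2). At these levels the tables, given to 2 decimals, hold few distinct values. COL15A1, for example, was listed at 0.08, 0.06 and 0.08 with Vehicle and at 0.02, 0.00 and 0.01 with XMU_MP_1.

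The order of levels was read from the group means, and neighbours were compared by the ranges of their libraries. Here 18 tested chains were ordered. With Vehicle, the ranges overlapped for 9 of 17 neighbouring pairs, and the order ran from COL6A3, COL6A2 and COL6A1 through COL18A1, COL7A1, LAMB3, LAMC1, LAMB1 and COL4A2 to COL4A1, and then from LAMB2, LAMA3, COL27A1 and COL8A1 to COL12A1, LAMA5, COL16A1 and COL13A1. Overlapping neighbours were COL6A3 with COL6A2, COL18A1 with COL7A1, COL7A1 with LAMB3, LAMC1 with LAMB1, LAMB1 with COL4A2, LAMB2 with LAMA3, LAMA3 with COL27A1, COL27A1 with COL8A1, and COL12A1 with LAMA5. With XMU_MP_1, the ranges overlapped for 2 pairs, LAMB3 with LAMB2 and COL13A1 with COL16A1. LAMB3 moved from rank 6 to rank 10 and LAMB1 kept rank 8. All 53 chains together held 0.188%, 0.217% and 0.181% of the summed FPKM with Vehicle and 0.140%, 0.147% and 0.133% with XMU_MP_1. The laminin chains alone held 0.0545% ± 0.00519 and 0.0315% ± 0.00192 (SD, n = 3 each), and the collagen chains 0.141% ± 0.0140 and 0.109% ± 0.00527. The total over all genes was higher in each XMU_MP_1 library, so the shares fell more than the summed FPKM of the chains. For the 53 chains together these falls were 1.39-fold and 1.30-fold. These shares are given as a description, without a test.

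The tested chains have a long exonic length, which merges all annotated exons of a gene and is not the length of a single transcript. Its median was 9269 bases against 5145 for 11081 tested genes with an annotation. With the trend on exonic length removed from each library, 15 chains were called lower and 1 higher. Over the 11081 genes of this fit 3425 were lower and 3268 higher, against 2886 and 3567 in the main fit. LAMB3, COL27A1, COL16A1 and LAMB1 then had log2 changes of -2.01, -1.25, -0.73 and -0.95. The part of exonic length and of the libraries that stood apart in the smaller changes was not tested beyond these values.

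Transcripts of proteins that build, bind or cut these chains were described in 5 lists of genes that are no collagen or laminin chain. Of 6 tested basement membrane partners 4 fell and 0 rose in limma (0 also at an unadjusted p under 0.05), with a median log2 change of -0.23. Over all tested genes 25.9% were lower and 32.0% higher, with a median of 0.04, which is the background for each of the 5 lists. NTN4, a netrin that binds laminin gamma chains, fell 1.76-fold, NID2, a nidogen that links laminin to collagen IV, 1.27-fold, HSPG2, which encodes perlecan, 1.23-fold and TINAGL1 1.14-fold, while AGRN and SPARC did not pass. Of 9 genes for processing and cross-linking outside the cell 7 fell and 0 rose (0 also at an unadjusted p under 0.05; median -0.31), beside 25.9% and 32.0% of all tested genes. The transglutaminase gene TGM2 went from 351 ± 17.4 to 203 ± 5.57 FPKM, PCOLCE, which encodes an enhancer of procollagen cleavage, from 4.54 ± 0.325 to 2.27 ± 0.125 FPKM. The lysyl oxidase family member LOXL1 fell 1.38-fold and the procollagen protease gene ADAMTS3 1.65-fold. LOXL2 measured 128 ± 4.75 and 126 ± 2.29 FPKM and did not pass.

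Of 24 tested genes for collagen folding, modification and export in the endoplasmic reticulum 11 rose and 4 fell, beside 32.0% and 25.9% of all tested genes, with a median log2 change of 0.04, the same as that of all tested genes. The lists were not tested against each other. SERPINH1, which encodes the collagen chaperone HSP47, measured 141 ± 4.46 FPKM with Vehicle and 94.9 ± 1.38 with XMU_MP_1, a 1.48-fold fall (adjusted p = 4.49e-06, limma). P3H1, a prolyl hydroxylase of collagen, rose from 56.0 ± 0.316 to 72.8 ± 0.947 FPKM, TMEM38B, an ion channel of the endoplasmic reticulum, rose 1.72-fold, and MIA3, which encodes the collagen export receptor TANGO1, rose 1.30-fold. The other 3 that fell were CREB3L1, a transcription factor that acts on collagen genes (1.86-fold), P4HA2 (1.16-fold) and P3H2 (1.16-fold). Of 9 receptors 4 fell and 1 rose (median -0.10), beside 25.9% and 32.0% of all tested genes. DDR1, a collagen receptor kinase, fell 1.74-fold, the integrin alpha chains ITGA2 and ITGA3 fell 1.64-fold and 1.19-fold, and DAG1, which encodes the laminin receptor dystroglycan, rose 1.38-fold. ITGB4, the integrin beta chain that binds epithelial laminin in hemidesmosomes, lay between 0.07 and 0.11 FPKM and was not tested. Of 8 proteases 5 were called lower and 1 higher (median -0.30), beside the same 25.9% and 32.0%. ADAMTS1 fell 2.15-fold, MMP14 1.58-fold and the collagenase gene MMP1 1.45-fold, while CTSK, the gene of cathepsin K, measured 0.740 ± 0.0900 and 1.79 ± 0.264 FPKM. CTSK, the 1 protease counted as higher, met the limit of 1 FPKM only through the XMU_MP_1 libraries, where it was high.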

How the data were processed

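RNA libraries (BGISEQ-500, per the labels' protocols) were deposited by the authors as 1 table per library with FPKM to 2 decimals, per the file headers, on genome build GRCh38, per the submitters' processing notes. The sources used here do not name the aligner, quantifier, annotation or strand setting. Depth is unknown, and no count model was used. Groups come from the sample titles.

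Values were transformed to log2(FPKM + 1). The 11151 genes whose mean reached 1 FPKM were tested for a difference between the groups with limma 3.58.1 (R 4.3.3, statmod 1.5.0), using trend and robust moderation and no covariate, and two-sided p-values adjusted by Benjamini-Hochberg. Ratios were tested by exact permutation (scipy 1.17.1). Scripts were tested on simulated data. The chains, gene lists and tests were chosen with earlier results of these data known. Named are all tested chains but 1, whose single values and ratios are not reported here though it is in the counts, low chains whose groups did not overlap, and up to 4 genes of each list by adjusted p; other genes were chosen after their values were seen. Genes were positioned with GENCODE release 29, matched for 99.37% of tested genes. Alternatives changed pseudocount, filter, scaling, moderation, minimum fold, block and libraries. Removal of a loess trend on exonic length, and leaving out both libraries that stood apart, were added after seeing the data.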

Additional observations from a re-analysis of the deposited data

How the results depend on the processing

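All 19 tested chains kept their direction in each of up to 18 alternatives. The count of chains called lower was 11 to 17 except against a minimum fold of 1.5, where it was 3. The 11 came from the 15 chains with a mean of at least 5 FPKM, where 2044 of 8347 genes were lower and 2769 higher. With no filter the count of 17 was over all 53 chains. It held 5 low chains, while COL4A2 lost its call, and 3271 of 17077 genes were lower and 3543 higher. The count called higher, 1 in the main setting, was 2 with no filter, where COL11A2 joined LAMB2, and 0 on rescaling to equal sums, on median centring, with close pairs of libraries averaged and against the minimum fold (limma; at an unadjusted p under 0.05 it was 0, 1, 0 and 0). Among all tested genes, median centring gave 3164 lower and 3090 higher, and averaging close pairs gave 2418 lower and 2742 higher. Leaving out each replicate in turn, the count of chains called higher was 0 to 1 and the count called lower 12 to 13. All tested genes then gave 2545 to 2850 lower and 3053 to 3590 higher. Over the 5 other matrix lists 24 genes were lower and 13 higher, beside 25.9% and 32.0% of all tested genes. The endoplasmic reticulum list held 11 of the higher genes and 4 of the lower ones. Against the minimum fold the 5 lists held 1 lower and 0 higher (0 also unadjusted), and 8 were higher with close pairs averaged. Over all genes, the minimum fold left 455 lower and 158 higher. With the replicate number as a block 15 chains were lower and 1 higher, LAMC1 (adjusted p = 0.0146) and COL13A1 (0.0301) passing in addition. In that setting 3093 of all tested genes were lower and 3956 higher. Deviations of same-numbered libraries correlated at -0.204, 0.392 and 0.244, and those of differently numbered libraries at -0.461 to 0.344. With 3 libraries per group, these values cannot decide whether the numbers pair the samples. The ratio of LAMA5 to LAMC1 changed by -0.30 on the log2 scale and by -0.236 with a pseudocount of 0.5. The other ratios kept their direction and moved by less than 1 SD. The cause of these differences was not tested, except that a minimum fold asks for larger changes. The unknown depth limits what can be said of chains under 1 FPKM.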
